A study of Mus musculus with 12 samples.

Results

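Paneth cells sit at the base of the small intestinal crypts and release granules filled with antimicrobial proteins. The genes described here encode proteins of those granules or of their processing, namely the lysozyme Lyz1, the alpha-defensins Defa17, Defa24 and Defa30, the metalloproteinase Mmp7, the ribonuclease Ang4, the lectin Itln1 and the phospholipase Pla2g2a. They were taken as a list of 8 names and looked up in the gene names of the count table, which held 15855 genes. Of the 8 names, 6 had a row. The gene ID of Defa30, ENSMUSG00000074444, stood in the table under its older symbol Gm15284, so 7 of the 8 genes had counts. Pla2g2a had no row by name or by gene ID and is not analysed here.

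RNA was sequenced from epithelial cells of the small intestine of male C57BL/6J mice, sorted as live cells that carried the epithelial surface protein EpCAM, 24 h after surgery. The pMCAO group, 5 samples, had a permanent occlusion of the middle cerebral artery, a model of ischaemic stroke. The sham group, 7 samples, had the surgery without the occlusion. The mice were 8 to 12 weeks old per the methods of the study, and the labels name no engineered allele in either group. The epithelium was released from the whole small intestine with EDTA, and the libraries were made from nanogram amounts of total RNA after cleavage of ribosomal RNA. In such bulk samples, fewer Paneth cells and less RNA per Paneth cell cannot be told apart.

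In the mouse, alpha-defensins are made as precursors that Mmp7, also called matrilysin, cuts to their active peptides inside the granule. Lysozyme cleaves the cell wall of bacteria, Ang4 is an angiogenin with bactericidal activity, and Itln1 binds sugars of the bacterial surface and is also made by goblet cells. Pla2g2a hydrolyses phospholipids of bacterial membranes and is known to be disrupted in the C57BL/6 strain. The annotation lists it as a polymorphic pseudogene on chromosome 4 from 138831857 to 138835186 (GRCm38, plus strand).

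Total counts ranged from 7418730 to 31925579 per sample, and a floor of 3 counts corresponded to 0.094 to 0.404 CPM, the count of a gene scaled to its library total. That floor is on the library totals alone, without further scaling. The first 4 libraries by the numbers in the sample titles, 58 to 61, were those of sham 1, 2 and 3 and pMCAO 1. They stood apart from the other 8 libraries, with 13386 to 14712 genes detected against 15343 to 15766. All 4 epithelial markers listed (Epcam, Cdh1, Krt8 and Krt19) were measured, and 2 of 8 stromal markers had a row. Mitochondrial ribosomal RNA took 14.6% to 54.5% of the counts. The labels name each sample a biological replicate and do not tie it to an animal, and no pair of samples within a group agreed within sampling noise.

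The sequences of the 3 alpha-defensins are shown because they bear on how far their counts can be told apart. Each has a coding length of 279 bases, of which 275 are the same in Defa24 and Defa30 (98.6%), 271 in Defa17 and Defa30 (97.1%) and 267 in Defa17 and Defa24 (95.7%). The last 105 coding bases before the stop codon, which encode the mature peptide, are given from the GENCODE vM21 transcripts (GRCm38). Capitals mark bases of Defa17 and Defa24 that differ from Defa30.
Defa30: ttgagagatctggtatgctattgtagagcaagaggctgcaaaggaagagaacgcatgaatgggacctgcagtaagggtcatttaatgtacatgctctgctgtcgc
Defa24: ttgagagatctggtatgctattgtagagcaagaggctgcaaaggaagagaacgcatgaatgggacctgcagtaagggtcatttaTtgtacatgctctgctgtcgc
Defa17: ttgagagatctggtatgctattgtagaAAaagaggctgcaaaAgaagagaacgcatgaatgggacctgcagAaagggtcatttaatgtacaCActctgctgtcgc

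Defa24 differed from Defa30 at 1 of these 105 bases and Defa17 at 6. All 3 lie on chromosome 8 (plus strand), Defa30 from 21134642 to 21135598, Defa17 from 21655780 to 21656735 and Defa24 from 21734494 to 21735471. Of the 298 windows of 100 bases in the Defa17 transcript, 270 (90.6%) occurred unchanged in the transcripts of Defa3 or Defa30. A read of Defa17 can therefore often not be assigned, and its counts are uncertain. Defa24 shared 0 of 320 windows with another gene and Defa30 1 of 299. Almost all shared windows of Defa17 were thus those of Defa3, which had no row.

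The oligonucleotides that the study used to measure lysozyme by quantitative PCR are shown because mice carry a second lysozyme gene, Lyz2, which marks macrophages and other myeloid cells. Capitals mark bases that differ from the Lyz2 transcript.
Lysozyme forward primer: gagaccGaagcacCgactatg
Lysozyme reverse primer: cggttttgacaTtgtgTtcgc

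Both 21-base primers matched the Lyz1 transcript without a mismatch, the forward primer in exon 2 (chromosome 10, 117291113 to 117291133) and the reverse primer in exon 4 (117288620 to 117288640). Each had 2 mismatches to its nearest site in Lyz2. Lyz1 itself spans 117287797 to 117292868 on the minus strand, and 24 of the 1164 windows of 100 bases in its transcript (2.06%) were shared with Lyz2, so the counts of Lyz1 belong to the gene that those primers match.

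Levels below are TMM-scaled CPM, where TMM factors correct the library totals for differences in composition. To compare genes with each other, CPM was divided by the exon length in kilobases, over the 8 samples of the later libraries. Defa24 stood highest, with 26.3 CPM per kb ± 15.5 (SD, n = 8), and Defa30 next, with 25.8 ± 27.6. Itln1 followed at 9.99 ± 3.46, Lyz1 at 9.80 ± 7.85, Ang4 at 6.03 ± 7.65, Defa17 at 4.32 ± 3.98 and Mmp7 at 1.44 ± 0.913 CPM per kb. Each difference between neighbours in this order was smaller than the larger of their 2 SDs. Among the 15776 genes of the table with an annotated length, 4.91% stood above Defa24, 15.1% above Lyz1 and 57.3% above Mmp7 on this scale. Zg16, a secreted lectin of goblet cells, reached 7036 CPM per kb in the same 8 samples and Reg3b, a lectin made by enterocytes and Paneth cells, 988 CPM per kb. The 7 Paneth granule genes thus lay far below these 2 genes, which ranked 9 and 27 from the highest. Zg16 and Reg3b were each the highest of their own list on this scale. The lowest goblet cell marker, Sytl2, lay at 13.7 CPM per kb, below Defa24 and Defa30, and all other goblet cell markers listed lay above them. Other products linked to Paneth cells, described below and including Reg3b, lay on both sides of the 7. They ran from 0.458 (Wnt3) to 988 CPM per kb (Reg3b), with Guca2b at 562. The summed counts of the 7 genes were between 52 and 3504 per sample.

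**Figure D1:**
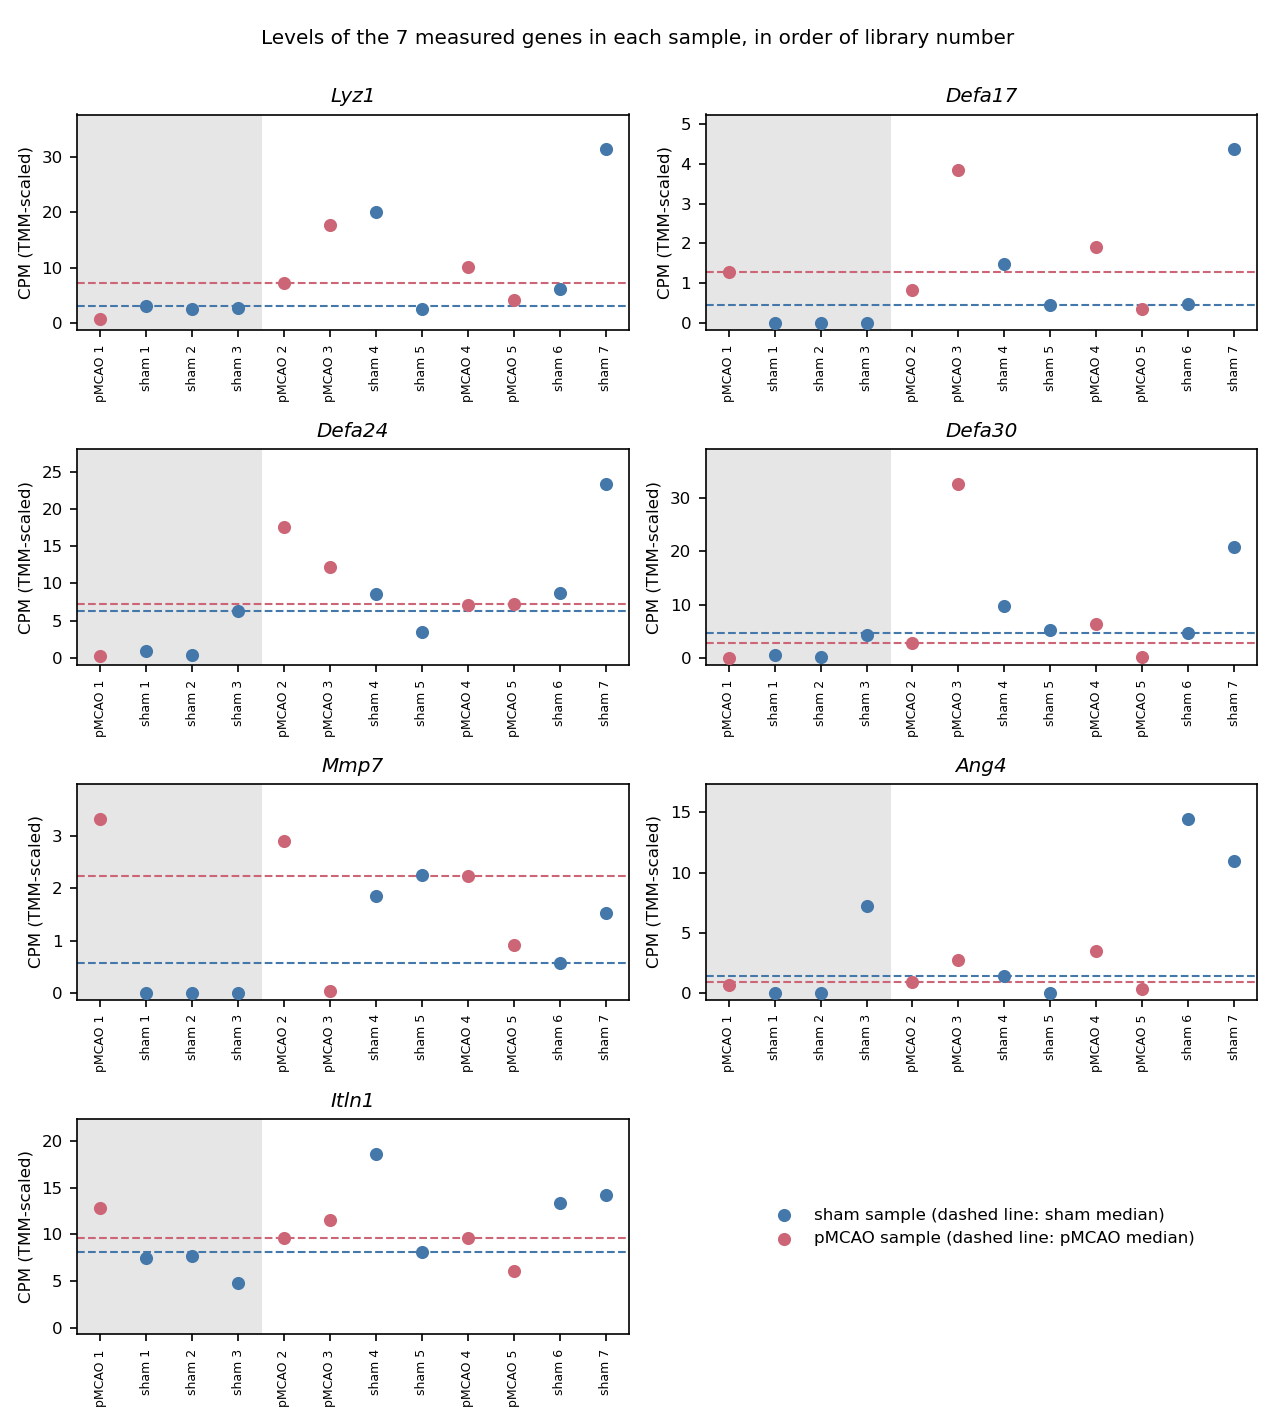
Each panel plots 1 gene, with the samples in order of library number on the x axis and TMM-scaled CPM on a linear y axis; points are samples, dashed lines are group medians and the grey band holds libraries 58 to 61. The sham and pMCAO points overlap in every panel, and for Lyz1, Defa24 and Defa30 the points in the grey band lie at or below 6.27 CPM while the later samples reach 23.4 to 32.6 CPM.

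Lyz1 (ENSMUSG00000069515) in the pMCAO samples measured 0.769, 7.17, 17.7, 10.1 and 4.11 CPM for replicates 1 to 5. In the sham samples it ranged from 2.43 CPM through a median of 3.03 to 31.4 CPM. The lowest value was that of pMCAO 1 and the highest that of sham 7, and the groups overlapped between 2.43 and 17.7 CPM, with sham 4 and sham 7 above every pMCAO sample. The means were 7.97 CPM ± 6.46 (SD, n = 5) and 9.73 CPM ± 11.5 (SD, n = 7). Limma-voom gave a log2 fold change of pMCAO over sham of 0.16 (SE 0.69, 95% confidence interval -1.30 to 1.63, adjusted p = 0.962). The interval includes a halving as well as a doubling of Lyz1. Leaving out pMCAO 3 turned the log2 value to -0.38, and leaving out sham 5 to -0.13. Leaving out sham 1 left it at about 0. The linear means and the limma value differ in direction. On all samples, edgeR and DESeq2 gave -0.29 and -0.31 (adjusted p = 0.966 and 0.932).

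The share of Lyz1 in the summed counts of Lyz1 and Lyz2 does not depend on the scaling of the libraries. It was 6.67% in pMCAO 1 (95% Wilson interval 3.55 to 12.2) and 13.8% to 19.3% in sham 1 to 3. In the later libraries it was 42.5%, 87.0%, 59.7% and 45.8% in pMCAO 2 to 5. It was 22.1% in sham 5 and between 55.5% and 61.5% in sham 4, 6 and 7. The first 4 libraries thus lay below all 8 later ones, and within the later ones the groups overlapped. The intervals of sham 1 (14.4% to 25.4%) and sham 5 (16.8% to 28.5%), which lay on the 2 sides of that divide, overlapped. Lyz2 itself measured 10.8 to 16.4 CPM in the first 4 libraries and 2.65 to 25.1 CPM in the others. Between the groups Lyz2 differed by -0.81 on the log2 scale (SE 0.48, limma adjusted p = 0.649). These intervals and the floor above describe the error of counting reads alone and leave out differences between samples. The methods of the study describe no molecular identifiers, so copies of a molecule may have been counted more than once.

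Defa24 (ENSMUSG00000064213) in the pMCAO samples measured 0.256, 17.6, 12.3, 7.04 and 7.28 CPM. The sham samples ranged from 0.415 CPM (2 counts, in sham 2) through a median of 6.27 to 23.4 CPM. Outside pMCAO 1, the pMCAO samples lay between 7.04 and 17.6 CPM, inside the sham range. The log2 fold change was 0.56 (SE 0.87, 95% confidence interval -1.28 to 2.39, adjusted p = 0.877).

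Defa30 (ENSMUSG00000074444) varied most among the defensins. In the pMCAO samples it measured 0, 2.82, 32.6, 6.32 and 0.0754 CPM, the last from 2 counts and the first from none. The sham samples ranged from 0.207 CPM through a median of 4.58 to 20.7 CPM. The pMCAO group thus held both the highest and the lowest value. The log2 fold change was -0.93 (SE 1.34, 95% confidence interval -3.78 to 1.91, adjusted p = 0.867), and it turned to 0.21 without pMCAO 5.

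Since Defa24 and Defa30 are alike in sequence and share almost no 100-base window, their counts were also set against each other. Defa30 made up 13.8%, 72.7%, 47.3% and 1.03% of their summed counts in pMCAO 2 to 5. The interval of pMCAO 5 was 0.282% to 3.66% and that of pMCAO 3 was 70.7% to 74.6%. In sham 4 to 7 the share was 53.4%, 59.7%, 34.5% and 47.0%. The 4 later pMCAO samples therefore spread more widely than the 4 later sham samples, with an SD of 32.5 against 10.8 percentage points, a difference in spread that was not tested. In the first 4 libraries the share rested on 3 to 44 counts and was 0% to 40.9%.

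**Figure D2:**
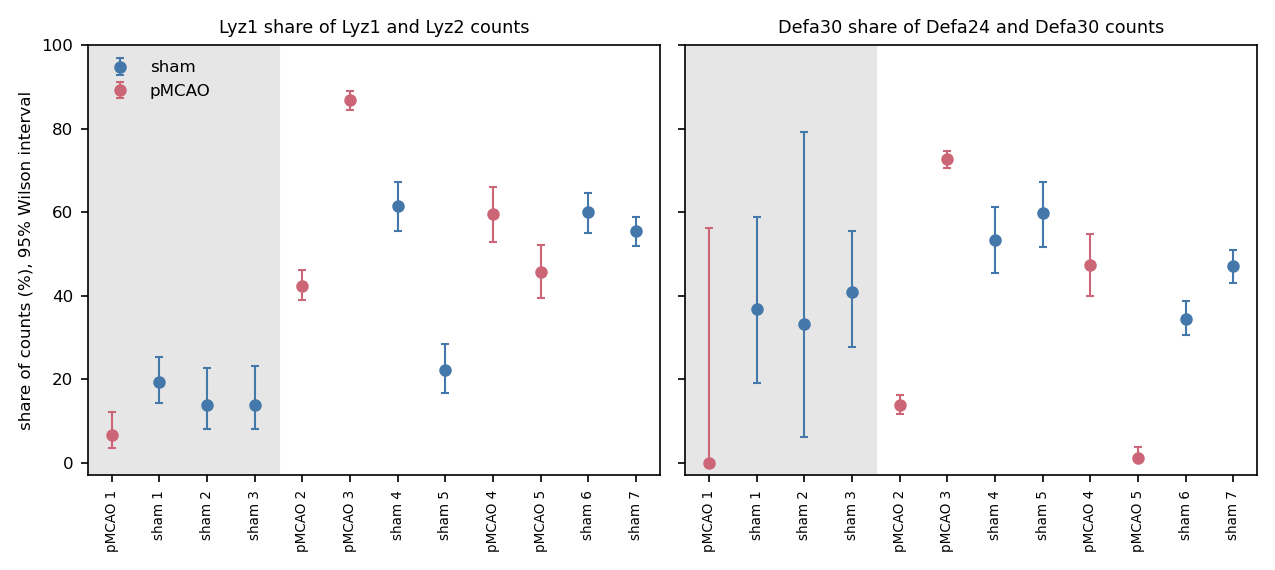
The left panel plots the share of Lyz1 in the counts of Lyz1 and Lyz2 and the right panel that of Defa30 in the counts of Defa24 and Defa30, both in percent, with samples in order of library number, 95% Wilson intervals as bars and libraries 58 to 61 in the grey band. The Lyz1 share stays at or below 19.3% in the grey band and at or above 22.1% outside it, but the bars of sham 1 and sham 5 overlap. Outside the grey band the Defa30 share runs from 1.03% in pMCAO 5 to 72.7% in pMCAO 3.

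Defa17 (ENSMUSG00000060208), whose counts are uncertain, measured 1.28, 0.817, 3.85, 1.92 and 0.339 CPM in the pMCAO samples. It was listed at 0 in sham 1, 2 and 3, had a sham median of 0.462 CPM and reached 4.37 CPM in sham 7. The 3 sham values at 0 all came from the first 4 libraries. The log2 fold change, 1.65 (SE 0.99, 95% confidence interval -0.45 to 3.74, adjusted p = 0.653), was the largest among the 7 genes and did not pass the test.

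Mmp7 (ENSMUSG00000018623), the protease that activates the defensins, lies on chromosome 9 (plus strand, 7692090 to 7699585). It measured 3.33, 2.92, 0.023, 2.24 and 0.905 CPM in the pMCAO samples, with 1 count in pMCAO 3. It was listed at 0 in sham 1, 2 and 3, had a sham median of 0.563 CPM and reached 2.25 CPM in sham 5. Its order over the samples was unlike that of the defensins: pMCAO 1, lowest for Defa24 and Defa30, was highest for Mmp7, and pMCAO 3, highest for Defa30, had 1 Mmp7 count. The log2 fold change was 0.36 (SE 1.43, 95% confidence interval -2.68 to 3.40, adjusted p = 0.959), and it turned negative without sham 1 or without pMCAO 2. An exon of Mmp7 overlaps AV064505 on the opposite strand, and the strand setting of the counting is not given in the sources used here, so reads of both may be mixed there.

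Ang4 (ENSMUSG00000060615), on chromosome 14 (minus strand, 51763878 to 51773590), measured 0.598, 0.864, 2.74, 3.44 and 0.339 CPM in the pMCAO samples. It was listed at 0 in sham 1, 2 and 5, had a sham median of 1.36 CPM and reached 14.5 CPM in sham 6. The 3 highest values, in sham 6, sham 7 and sham 3, were all sham, and so were the 3 lowest. The mean was 1.60 CPM ± 1.40 (SD, n = 5) in pMCAO and 4.86 CPM ± 6.03 (SD, n = 7) in sham samples, while the log2 fold change was 0.03 (SE 1.40, 95% confidence interval -2.94 to 2.99, adjusted p = 0.997). The linear means and the log2 value thus differ in direction, and edgeR and DESeq2 gave -1.62 and -1.64 (adjusted p = 0.866 and 0.782). The limma value also turned negative without sham 1, 2 or 5 or without pMCAO 3 or 4, down to -1.16.

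Itln1 (ENSMUSG00000038209), on chromosome 1 (minus strand, 171518122 to 171535294), was the most even of the 7 genes. It measured 12.8, 9.62, 11.5, 9.59 and 6.11 CPM in the pMCAO samples and 4.82 CPM through a median of 8.15 to 18.6 CPM in the sham samples. It was the single gene of the 7 with more than 3 counts and more than 4 CPM in all 12 samples. The log2 fold change was -0.17 (SE 0.29), and its 95% confidence interval of -0.78 to 0.44 was the narrowest of the 7 and lay within a doubling or a halving (adjusted p = 0.888).

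Over the 7 genes, limma-voom on the group alone called 0 past the thresholds of the study (adjusted p 0.05, with a log2 change of 1 in either direction). Over all 14462 genes tested it called 0 (0%), while 1219 had an unadjusted p under 0.05, and 0 of the 7 genes did. EdgeR also called 0 of the 7 and 0 of all genes, and DESeq2 called 70 of all genes. DESeq2 called none of the 5 Paneth granule genes to which it gave an adjusted p, and it gave none for Defa17 and Mmp7. All 7 passed the filter on low counts, but Pla2g2a, with no row, is not among them. The median log2 fold change of the 7 was 0.16, beside 0.06 over all genes tested. The ranges of the sham and pMCAO samples overlapped for 7 of the 7 genes, and 0.505% of all genes tested had groups that did not overlap.

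**Figure D3:**
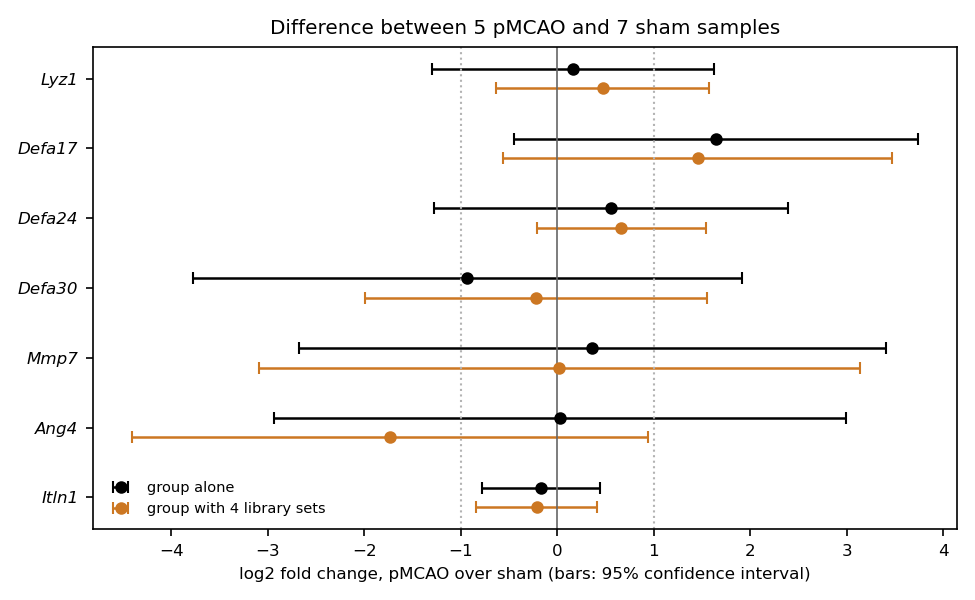
Points are log2 fold changes of pMCAO over sham for the 7 genes and bars their 95% confidence intervals, in black for the fit on the group alone and in orange for the fit with 4 sets of consecutive libraries; dotted lines mark a log2 value of 1 in either direction. All 14 intervals cross 0, and the 2 intervals of Itln1 alone stay between the dotted lines.

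The study corrected for the day of tissue collection, which the labels do not give. In its place, 4 sets of consecutive library numbers were entered as a covariate, known from earlier work on these data and not from the labels. The sets held 3 sham and 1 pMCAO samples (libraries 58 to 61), 2 and 2 (62 to 65), 1 and 2 (66 to 68), and sham 7 alone (library 72), which then carries no information on the group difference. With the sets, 0 of the 7 genes and 47 of all genes tested (0.325%) were called. The median log2 value of the 7 was 0.02, beside 0.01 over all genes tested.

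With the sets Lyz1 stood at 0.47 on the log2 scale (SE 0.52, adjusted p = 0.755) and Defa24 at 0.66 (SE 0.41, adjusted p = 0.542). Defa17 stood at 1.45 (SE 0.95) and Defa30 at -0.22 (SE 0.84). Mmp7 stood at 0.02 (SE 1.47), Itln1 at -0.21 (SE 0.30) and Ang4, whose direction turned, at -1.73 (SE 1.26, adjusted p = 0.610). The value of Mmp7 depended on the tool, and with the sets edgeR gave 1.97 (adjusted p = 0.712) and DESeq2 2.36 (unadjusted p = 0.040, with no adjusted p). For Defa17 edgeR gave 2.16 (adjusted p = 0.479) and DESeq2 2.27 (unadjusted p = 0.014, with no adjusted p). These fits with the sets were chosen after seeing the data. In the DESeq2 fit with the sets, 1635 of all 14462 genes had an unadjusted p under 0.05. Within sets 1, 2 and 3, the difference in mean log2 CPM was -1.69, 0.67 and 0.09 for Lyz1. It was -2.08, 1.41 and -0.28 for Defa24 and -3.25, 0.44 and -2.14 for Defa30. For Mmp7 it was 5.08, -1.81 and 1.21, and for Ang4 0.73, 2.11 and -3.54. The set 1 value of Mmp7 compares pMCAO 1, at 39 counts, with 3 sham samples at 0, and that of Defa30 rests on 0 counts in pMCAO 1. The size of such values depends on the prior count of 2 used for log2 CPM. Of the 7 genes, Defa17 was the only one with the same direction in all 3 sets (3.77, 1.01 and 0.68). Its value in set 1 compares 1 pMCAO sample, at 15 counts, with 3 sham samples at 0. The share of all genes with the same direction in all 3 sets was not computed, so this carries no test.

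The libraries that stood apart also differed in these genes. The mean log2 CPM of the 4 samples of libraries 58 to 61 lay below that of the other 8 for all 7 genes, by -3.24 for Defa30, -3.19 for Defa24, -2.72 for Defa17, -2.30 for Mmp7, -2.14 for Lyz1, -1.90 for Ang4 and -0.48 for Itln1. Of the 15855 genes of the table, 9570 were also lower in these libraries. Sham 1, 2 and 3 had 0 counts of Defa17 and Mmp7, whereas pMCAO 1 had the highest Mmp7 level of all samples. Ang4 had 0 counts in sham 1 and 2, and Defa24 and Defa30 had at most 3 in pMCAO 1 and sham 2. The median over the 7 was -2.30, beside -0.27 over all genes of the table. These are descriptions without a test, since the libraries were known to stand apart. For 0 of the 7 genes did all 4 samples lie below all 8 others, while 8.96% of all genes of the table did so.

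Several lists of markers of other cell types moved with the same libraries. All 4 samples lay below all 8 others for 8 of 8 goblet cell markers (list median -2.52), 7 of 7 enteroendocrine markers (-3.02), 5 of 6 tuft cell markers (-3.54) and 3 of 6 stem cell markers (-3.33). They did so for 6 of 13 Paneth cell regulators (-2.31) and 3 of 13 other products linked to Paneth cells (-1.67). They did so for 0 of 9 enterocyte, 0 of 7 proliferation (-1.23), 0 of 10 leukocyte (-0.63) and 0 of 2 stromal markers (-1.04). Muc2, the main intestinal mucin, differed by -2.23 and Zg16 by -2.51. The granin Chgb differed by -2.69, the hormone Sct by -3.45, and the tuft cell genes Dclk1 and Trpm5 by -4.57 and -2.55. The summed level of the goblet list was 4156 to 8156 CPM in the first 4 libraries and 20753 to 55464 CPM in the others. That of the enteroendocrine list was 197 to 337 and 1274 to 2701 CPM. The enterocyte list was mixed, with a median of 0.15 and 4 of 9 genes lower. Apoa4 and Apoa1, proteins of chylomicrons, stood at 1.03 and 0.94, and the fatty acid binding protein Fabp1 and the disaccharidase Sis, named after their values were seen, at -1.49 and -1.06. Of the sort markers, Epcam, Krt8 and Cdh1 stood at 1.07, 0.81 and 0.67, whereas Krt19 stood at -2.18, with all 4 samples below all 8 others. The stem cell genes Rnf43 and Axin2 stood at 0.58 and 0.29. The part of the libraries in the levels of the Paneth granule genes was not tested beyond the fits with the sets.

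**Figure D4:**
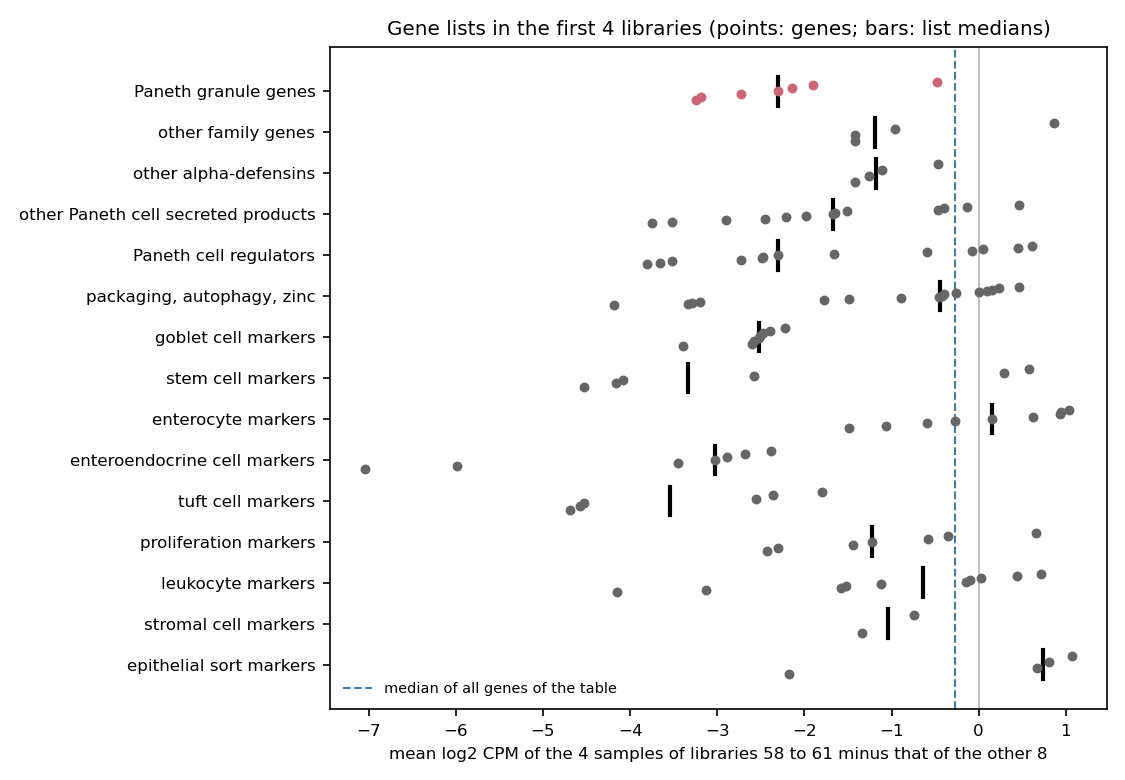
Each point is a gene, placed by the mean log2 CPM of the 4 samples of libraries 58 to 61 minus that of the other 8 samples, with 1 row for each gene list, black bars at list medians and a dashed line at the median of all genes of the table (-0.27). The 7 Paneth granule genes (red) lie between -3.24 and -0.48, beside goblet cell markers with a median of -2.52 and enterocyte markers with a median of 0.15.

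Within the 8 later samples the Paneth granule genes varied among themselves by different amounts. The SD of log2 CPM was 0.50 for Itln1, 0.84 for Defa24, 1.23 for Lyz1, 1.29 for Defa17, 2.28 for Defa30 and 2.38 for Ang4, and that of Mmp7 lay between those of Defa17 and Defa30. Over all genes tested the median of this SD was 0.52, with quartiles of 0.34 and 0.84. The highest later sample exceeded the lowest by 12.9-fold for Lyz1, 6.74-fold for Defa24 and 3.05-fold for Itln1.

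A few samples carried the high values. Sham 7, the sample of library 72, was the highest or second highest of all 12 for 6 of the 7 genes, Mmp7 being the exception. Sham 7, sham 4 and pMCAO 3 together held the 3 highest values of Lyz1. The summed level of the 7 genes was 106.5 CPM in sham 7 and 80.7 CPM in pMCAO 3, but 21.9 CPM in sham 5 and 19.1 CPM in pMCAO 5, of the same 8 later samples. In the first 4 libraries it was 10.8 to 25.3 CPM. High and low sums thus occurred in both groups.

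As a description over the 8 later samples, each gene was set against the mean log2 CPM of the other 6. Pearson's r was 0.87 for Lyz1, 0.79 for Defa17, 0.77 for Itln1, 0.63 for Defa24, 0.61 for Defa30, 0.57 for Ang4 and -0.31 for Mmp7. The points share library and depth. The 10 genes outside the 7 whose log2 CPM was most like the mean of the 7 over these 8 samples included a single alpha-defensin gene, AY761184 (r = 0.96). The others were Usp14 (r = 0.97), Ptprs, Nubp2, Hectd2, Mtcp1, Zfp704, Gm6665, Zfp287 and St7, with r between 0.94 and 0.96, and with 8 points such values carry no test.

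The other members of the same gene families were mostly without a row. Of 56 further alpha-defensin names, 4 were in the table, and of 14 further lysozyme, phospholipase, angiogenin and intelectin names also 4. Gm14851 ranged from 0 to 15.4 CPM in pMCAO and 1.51 to 18.8 CPM in sham samples. AY761184 ranged from 0.0377 to 12.2 CPM and from 0 to 27.1 CPM. On the log2 scale pMCAO differed from sham by -1.24 for Gm14851 (SE 1.06, adjusted p = 0.754) and by 0.76 for AY761184 (SE 1.58, adjusted p = 0.917). Defa22 did not pass the filter on low counts. Of the other family genes, 4 were tested and 0 called, with Lyz2 given above and the ribonuclease Ang at -0.16 (SE 0.34, adjusted p = 0.920).

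Other products linked to Paneth cells, 13 of 15 in the table, stood mostly higher in the pMCAO samples without passing the test. The list is not confined to products of these cells alone. Of the 12 tested, 0 were called and 5 had an unadjusted p under 0.05 in limma, beside 8.43% of all genes tested. All 12 had a log2 fold change above 0 (median 0.79, beside 0.06 over all genes tested). The share of all genes with a value above 0 was not computed. In the list of 9 enterocyte markers, 8 also had a value above 0. Of the 13 genes, 12 were lower in libraries 58 to 61 (median -1.67), which held 3 of the 7 sham samples and 1 of the 5 pMCAO samples. With the sets 10 of the 12 tested had a value above 0 (median 0.68). In that limma fit 4 of the 12 had an unadjusted p under 0.05, beside 12.7% of all genes tested. Guca2b, a guanylin family peptide that enterocytes also make, measured 615 CPM ± 232 (SD, n = 5) in pMCAO and 318 CPM ± 74.0 (SD, n = 7) in sham samples. That difference was 0.93 on the log2 scale (SE 0.26, adjusted p = 0.322), and 0.70 with the sets (SE 0.20, adjusted p = 0.145). Reg3b averaged 1217 CPM ± 429 in the 5 pMCAO and 650.2 CPM ± 657 in the 7 sham samples, or 1.41 on the log2 scale (SE 0.56, adjusted p = 0.525), and 0.78 with the sets (SE 0.37, adjusted p = 0.393).

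Of the 13 transcription factors and secretory regulators of Paneth cells, 13 were tested and 0 called (median 0.33). In limma 2 of them had an unadjusted p under 0.05, and 4 with the sets, beside 8.43% and 12.7% of all genes tested. The largest value was that of Gfi1, named after it was seen, at 2.76 (SE 0.97, adjusted p = 0.470). With the sets Gfi1 stood at 2.22 (SE 0.63, adjusted p = 0.149), from a mean of 1.88 CPM. Tcf7l2, a factor of Wnt signalling, stood at -0.10 on the log2 scale (SE 0.21, adjusted p = 0.920), and Xbp1, a factor of the unfolded protein response, at 0.42 (SE 0.20, adjusted p = 0.592). Of the 16 genes of granule packaging, autophagy and zinc handling, 15 were tested and 0 called (median 0.22). The surface protein Cd24a stood at 0.71 (SE 1.07, adjusted p = 0.873), and with the sets at -0.54 (SE 0.31, adjusted p = 0.502). The zinc importer Slc39a4 averaged 74.1 CPM ± 11.1 in the 5 pMCAO and 49.6 CPM ± 8.19 in the 7 sham samples, or 0.60 on the log2 scale (SE 0.17, adjusted p = 0.322).

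The same comparison called 0 genes in every marker list of other cells. The median log2 fold change was 0.85 for 8 goblet cell markers, 0.52 for 6 stem cell markers, 0.45 for 9 enterocyte markers, 0.36 for 7 enteroendocrine markers, 0.30 for 5 tuft cell markers, 0.29 for 6 proliferation markers, 0.53 for 9 leukocyte markers, 0.76 for 2 stromal markers and -0.28 for 4 sort markers. With the sets the medians of the enteroendocrine and tuft cell lists turned to -0.19 and -0.41, that of the stem cell list was 0.05, and again 0 genes of any list were called. All 9 enterocyte markers stood above 0 with the sets, and their lowest adjusted p in limma was 0.034. Their largest log2 value, 0.86, was under the threshold of 1. The summed level of the leukocyte list, which holds cells that the sort should remove, was 38.0 to 234 CPM in sham and 47.2 to 159 CPM in pMCAO samples. That of the 2 stromal markers was 2.31 to 13.7 and 4.44 to 13.4 CPM.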

How the data were processed

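The deposited counts were whole-number counts per gene, made by the authors from reads aligned to GRCm38 with STAR and assigned with featureCounts. The strand setting was not given in the sources used here. The deposited CPM values expressed each count relative to its sample total. The deposited log2 and p-value columns held the authors' own comparison and were not used. Every gene of the table had at least 0.501 CPM in 4 samples, so it had been filtered before deposit.

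Genes were kept with filterByExpr (minimum count 10), leaving 14462. They were fitted on the group with limma-voom and TMM factors (limma 3.58.1, edgeR 4.0.16, R 4.3.3), with Benjamini-Hochberg adjustment over all of them. Log2 CPM used a prior count of 2. The code was tested on simulated data. Each gene and each list was chosen with earlier results of these data known. In each list the 2 genes with the highest mean CPM and any gene called were named, plus the 10 genes most like the mean of the 7 over the later libraries. Members with no row by name were matched by gene ID. Alternatives were DESeq2 (1.42.0), edgeR, other scalings, no filter, the library sets, a replicate block, and leaving out libraries 58 to 61 or each sample. Differences between samples set the p-values, whether biological or technical.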

Additional observations from a re-analysis of the deposited data

Results flagged for a closer look

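Among the 14 groups of values examined (7 genes in 2 groups), 1 held a sample farther from the rest than Dixon's test allows at its 95% level, where chance flags about 1 group in 20 (0.7 expected). Defa24 in pMCAO 1 stood at -1.48 log2 CPM (0.256 CPM, 3 counts), and its gap to the nearest pMCAO sample was 76.7% of the range of that group. PMCAO 1 is the one pMCAO sample of libraries 58 to 61. The part of the library in this value was not tested.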

How the results depend on the processing

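The count of genes called stayed at 0 in the 12 other alternatives and in the 12 fits without 1 sample each, although DESeq2 gave no adjusted p for Defa17 and Mmp7, nor with the sets for Ang4, which could therefore not be called. The median log2 fold change of the 7 ranged from -0.44 (without libraries 58 to 61) to 0.86 (replicate block), and from -0.27 to 0.62 without 1 sample each. Its direction was therefore not fixed. With the 6 genes matched by name it was 0.26.

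Of 161 log2 fold changes of single genes under an alternative, 132 kept their direction and 29 turned it, none of them called. With edgeR and DESeq2, Lyz1 stood at -0.29 and -0.31, Defa30 at 0.36 and 0.35 and Ang4 at -1.62 and -1.64. Ang4 stood at -1.73 with the sets, and with the sets in edgeR and DESeq2 at -1.01 and -1.06, Lyz1 at -0.24 and -0.29, and Defa24 in DESeq2 at -0.10 (these fits were chosen after seeing the data). The same fits gave 1.97 and 2.36 for Mmp7, against 0.02 in limma, and 2.16 and 2.27 for Defa17, against 1.45. Without libraries 58 to 61, Mmp7 stood at -1.11 and Ang4 at -1.06. Scaling by library totals alone moved the median of all genes from 0.06 to 0.35, that of the 7 to 0.74 and Itln1 to 0.22. Without 1 sample each, Lyz1 ranged from -0.38 to 0.57, Defa17 from 0.95 to 2.25, Defa24 from 0.09 to 1.10, Defa30 from -2.66 to 0.21, Mmp7 from -0.50 to 2.05, Ang4 from -1.16 to 1.61 and Itln1 from -0.27 to 0.0073. The cause was not tested.

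Equal replicate numbers did not pair the samples, with correlations of their deviations of 0.40, -0.24, -0.16, 0.16 and 0.08, and 1 of the 5 numbers matched itself best. With the replicate block, Defa30 stood at 0.71 and Itln1 at 0.016, 0 of the 7 genes were called, and 259 of 13644 genes were called in all. Counts over all genes were otherwise 70 with DESeq2, 47 with the sets, and 21 and 97 with the sets in edgeR and DESeq2. Most values of Defa17 and Mmp7 rested on under 50 counts, and the part of depth in the width of their intervals was not tested.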
